A study of Mus musculus with 7 samples.

Results

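The tektin genes Tekt1, Tekt2, Tekt3, Tekt4 and Tekt5 were taken by symbol from the deposited table of array signals, and all 5 were measured among the 18194 genes that have a probe set with a single gene symbol. Each tektin had 1 such probe set, so no choice between probe sets was needed, and no tektin symbol appeared on a probe set with several symbols. The RNA was from whole testes, taken at 15 to 20 weeks of age, with 3 arrays of Phf13 knockout mice and 4 arrays of wild type mice. Strain, the form of the deleted allele and the number of animals behind each array are not given in the sources used here, so p-values measure the spread between arrays, which may be partly technical.

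Tektins are coiled-coil proteins that run as filaments along the inside of the doublet microtubules of cilia and flagella. Tekt1, Tekt2, Tekt3 and Tekt4 proteins form a bundle within the A-tubule, the complete tubule of each doublet, and Tekt5 is known from sperm. In the testis the genes are active while germ cells build the sperm tail, and tektins are known for their part in the stability and beating of that tail.

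The promoters are shown because the 5 genes differed in the same direction and because ciliary genes are known to carry binding sites of RFX factors near their start. The sequences are from RefSeq, GRCm38.p6, and all 5 genes matched that table. For each gene the most upstream start site that has a promoter window was used. For Tekt1 and Tekt4 this site lies inside the annotated gene. The Tekt1 gene, on the minus strand, reaches to 72362442, and the Tekt4 gene, on the plus strand, starts at 25454549. Each line gives 150 bases read 5′ to 3′ from 100 bases before the start site (position 0) to 49 bases after it. Capitals mark the RFX half-site GTTGCC on either strand and any pair of the shorter half-sites GTTGC and GCAAC that face each other with 0 to 4 bases between them.
Tekt1, chr11:72361833-72361982, minus strand: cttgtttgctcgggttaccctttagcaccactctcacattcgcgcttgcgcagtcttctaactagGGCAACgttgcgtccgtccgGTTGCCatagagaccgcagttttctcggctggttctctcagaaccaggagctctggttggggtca
Tekt2, chr4:126325639-126325788, minus strand: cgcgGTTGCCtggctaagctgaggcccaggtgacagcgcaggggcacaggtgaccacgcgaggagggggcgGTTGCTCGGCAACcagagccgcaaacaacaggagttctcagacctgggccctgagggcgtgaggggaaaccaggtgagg
Tekt3, chr11:63061559-63061708, plus strand: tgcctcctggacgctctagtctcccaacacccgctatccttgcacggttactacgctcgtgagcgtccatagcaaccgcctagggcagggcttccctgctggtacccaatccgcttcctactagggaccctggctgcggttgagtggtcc
Tekt4, chr17:25471490-25471639, plus strand: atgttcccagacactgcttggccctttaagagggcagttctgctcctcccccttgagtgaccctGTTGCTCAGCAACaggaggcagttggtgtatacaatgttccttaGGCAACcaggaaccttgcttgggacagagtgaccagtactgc
Tekt5, chr16:10395406-10395555, minus strand: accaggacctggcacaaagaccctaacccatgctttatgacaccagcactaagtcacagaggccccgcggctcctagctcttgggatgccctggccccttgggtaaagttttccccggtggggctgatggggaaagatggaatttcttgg

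The half-site GTTGCC was present in the full window of 300 bases of Tekt1, Tekt2 and Tekt4, and in 12.5% of all 32851 promoter windows in the table. Tekt1 held it at −35 on the opposite strand and at −15 on its own strand. Tekt2 held it at −96 and, on the opposite strand, at −22, where it overlaps the facing pair GTTGCTCGGCAAC. Tekt4 held it at 8 on the opposite strand and a facing pair, GTTGCTCAGCAAC, from −36 to −24. Facing pairs occurred in 0.447% of windows, and the search for them was added after these promoters had been read. Neither pattern was found in the windows of Tekt3 and Tekt5. The half-site TGACG of cAMP response elements was found in the full window of Tekt1 alone among these 5, at −148, and in 20.8% of all windows. Some genes have further windows downstream. That of Tekt1 held TGACG at −236 and, on the opposite strand, at −20, but no GTTGCC, and the most downstream window of Tekt2 held no match. Counted by gene over all windows, the shares were 14.1% for GTTGCC, 0.503% for facing pairs and 23% for TGACG. The matches describe letters in the window and do not show that a factor binds there.

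The arrays matched their labels for the targeted gene. Phf13, which encodes a PHD finger protein that binds methylated histone H3, had a log2 signal of 6.04, 5.83 and 5.71 in knockout and of 8.54 to 8.73 in wild type arrays, a level 6.88-fold lower (limma adjusted p = 8.76e-06). The sources used here do not say where its probe set lies relative to the deletion. Array medians lay between 5.01 and 5.08, and every tektin signal lay above the median of its array. The sample titles open with a number that the labels do not explain. By its leading digits the arrays fall into 3 title-number groups that mix the genotypes. The first holds knockout 1 and wild type 1, the second holds knockout 2, wild type 2 and wild type 3, and the third holds knockout 3 and wild type 4.

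Tektin signals were lower in knockout than in wild type testis by modest amounts. Tekt3, Tekt4 and Tekt5 fell by 0.33, 0.30 and 0.32 on the log2 scale, or 1.26-fold, 1.23-fold and 1.25-fold. Tekt1 and Tekt2 had log2 fold changes of −0.18 and −0.22, which did not pass the limma threshold of an adjusted p of 0.05 over all genes tested. In each of the 5 genes all 3 knockout arrays lay below all 4 wild type arrays. Among all tested genes, 7.05% were called lower in knockout and 9.07% higher, 59.9% had a log2 fold change below 0, and 15.2% had knockout arrays that all lay below the wild type arrays. Among the 9095 genes brighter than the median tested gene, as all 5 tektins are, these shares were 11.9% and 24.2%. In bulk tissue, fewer cells of a type and less RNA per cell cannot be told apart.

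**Figure D1:**
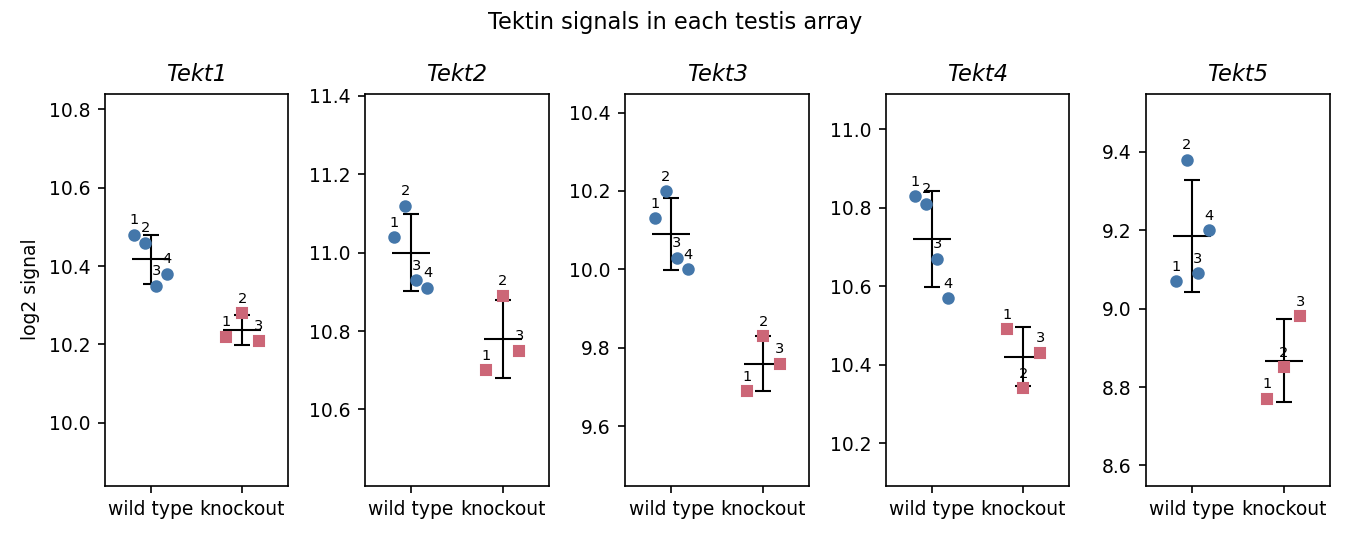
Log2 signal (y axis) of each tektin in the 4 wild type arrays (blue circles) and the 3 knockout arrays (red squares), labelled with the replicate number; the horizontal bar is the group mean and the error bar 1 SD. Each panel spans 1 log2 unit with its own range, and in every panel the knockout squares lie below the wild type circles, by as little as 0.02 for Tekt2 and by 0.17 for Tekt3.

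Tekt1, which motile cilia of many tissues express, gave log2 signals of 10.22, 10.28 and 10.21 in knockout 1, 2 and 3. Its signals were 10.48, 10.46, 10.35 and 10.38 in wild type 1 to 4. The knockout arrays were close together, and the lowest wild type array lay 0.07 above the highest of them. The means were 10.24 ± 0.04 (SD, n = 3) and 10.42 ± 0.06 (SD, n = 4), and the log2 fold change was −0.18 (SE 0.06, 95% confidence interval −0.32 to −0.04, limma adjusted p = 0.0767). An exact two-sided permutation test gave p = 0.0286, the smallest that the 35 divisions of 7 arrays allow. These tests take the arrays as exchangeable across title-number groups. Exchanging genotypes only inside the groups would leave 12 divisions and no exact p below 0.0833. Within the title-number groups the differences were −0.26, −0.13 and −0.17.

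Tekt2, whose loss is known to impair flagellar bending in mouse sperm, gave log2 signals of 10.70, 10.89 and 10.75 in knockout 1, 2 and 3. The wild type signals were 11.04, 11.12, 10.93 and 10.91. Knockout 2 was the highest knockout array and lay only 0.02 below wild type 4, so the genotypes barely separated. The means were 10.78 ± 0.10 (SD, n = 3) and 11.00 ± 0.10 (SD, n = 4), with a log2 fold change of −0.22 (SE 0.08, 95% confidence interval −0.40 to −0.04, limma adjusted p = 0.0876; exact two-sided permutation p = 0.0286). Within the title-number groups the differences were −0.34, −0.14 and −0.16. Tekt2 lies on chromosome 4, as Phf13 does, and its change was the second smallest of the 5 in size.

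Tekt3, known for its part in forward sperm motility, had the clearest separation of the family. Its log2 signals were 9.69, 9.83 and 9.76 in knockout 1, 2 and 3. The wild type signals were 10.13, 10.20, 10.03 and 10.00, so the lowest wild type array lay 0.17 above the highest knockout array. The means were 9.76 ± 0.07 (SD, n = 3) and 10.09 ± 0.09 (SD, n = 4). The log2 fold change was −0.33 (SE 0.07, 95% confidence interval −0.49 to −0.17, limma adjusted p = 0.0222; exact two-sided permutation p = 0.0286). The differences by title-number group were −0.44, −0.29 and −0.24, and with these groups as a block Tekt3 remained past the threshold (−0.32, limma adjusted p = 0.0444). With 1 array left out it passed in 3 of 7 fits. It did not pass without knockout 1 (limma adjusted p = 0.0703), knockout 3 (0.0697), wild type 1 (0.0658) or wild type 2 (0.0502).

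Tekt4, whose loss is known to slow the forward movement of mouse sperm, gave log2 signals of 10.49, 10.34 and 10.43 in knockout 1, 2 and 3. The wild type signals were 10.83, 10.81, 10.67 and 10.57. Wild type 4 was the lowest wild type array and lay 0.08 above knockout 1, the highest knockout array. The means were 10.42 ± 0.08 (SD, n = 3) and 10.72 ± 0.12 (SD, n = 4), with a log2 fold change of −0.30 (SE 0.08, 95% confidence interval −0.49 to −0.11, limma adjusted p = 0.0412; exact two-sided permutation p = 0.0571). Within the title-number groups the differences were −0.34, −0.40 and −0.14, and as a block these groups gave a limma adjusted p of 0.0530. With 1 array left out it passed in 1 of 7 fits, the one without wild type 4 (limma adjusted p = 0.0323). The other fits gave −0.34 without knockout 1 (limma adjusted p = 0.0733), −0.26 without knockout 2 (0.102), −0.31 without knockout 3 (0.105), −0.26 without wild type 1 (0.104), −0.27 without wild type 2 (0.0970) and −0.32 without wild type 3 (0.0594).

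Tekt5, which is also known from sperm, gave log2 signals of 8.77, 8.85 and 8.98 in knockout 1, 2 and 3. The wild type signals were 9.07, 9.38, 9.09 and 9.20, with wild type 2 well above the other wild type arrays. The nearest arrays of the genotypes, knockout 3 and wild type 1, were 0.09 apart. The means were 8.87 ± 0.11 (SD, n = 3) and 9.19 ± 0.14 (SD, n = 4), the widest spread of the 5 genes in both genotypes. The log2 fold change was −0.32 (SE 0.09, 95% confidence interval −0.53 to −0.11, limma adjusted p = 0.0491; exact two-sided permutation p = 0.0286). The differences by title-number group were −0.30, −0.39 and −0.22, and blocking on the groups gave a Tekt5 limma adjusted p of 0.0685. With 1 array left out Tekt5 passed in 0 of 7 fits, with log2 fold changes from −0.38 (without knockout 3) to −0.25 (without wild type 2). Its limma adjusted p in these fits was 0.145 without knockout 1, 0.105 without knockout 2, 0.0754 without knockout 3, 0.0740 without wild type 1, 0.0907 without wild type 2, 0.0578 without wild type 3 and 0.0901 without wild type 4.

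The deviations of single arrays ran together for the 5 genes in some arrays and apart in others. In wild type 2 all 5 lay above their wild type mean, by 0.04 for Tekt1 to 0.20 for Tekt5, and in wild type 3 all 5 lay below it, by 0.05 to 0.10. Wild type 1 was above the mean for Tekt1, Tekt2, Tekt3 and Tekt4 and below it for Tekt5 (−0.12), and wild type 4 showed the reverse, with Tekt5 at 0.02 and Tekt4 at −0.15. In knockout 2, Tekt1 and Tekt2 came nearest to wild type (−0.14 and −0.11), while Tekt4 was at its lowest (−0.38). Around the knockout means the genes went apart: in knockout 1 Tekt4 lay above its mean (0.07) and the other 4 below theirs, and in knockout 2 Tekt4 (−0.08) and Tekt5 (−0.02) lay below and the other 3 above.

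**Figure D2:**
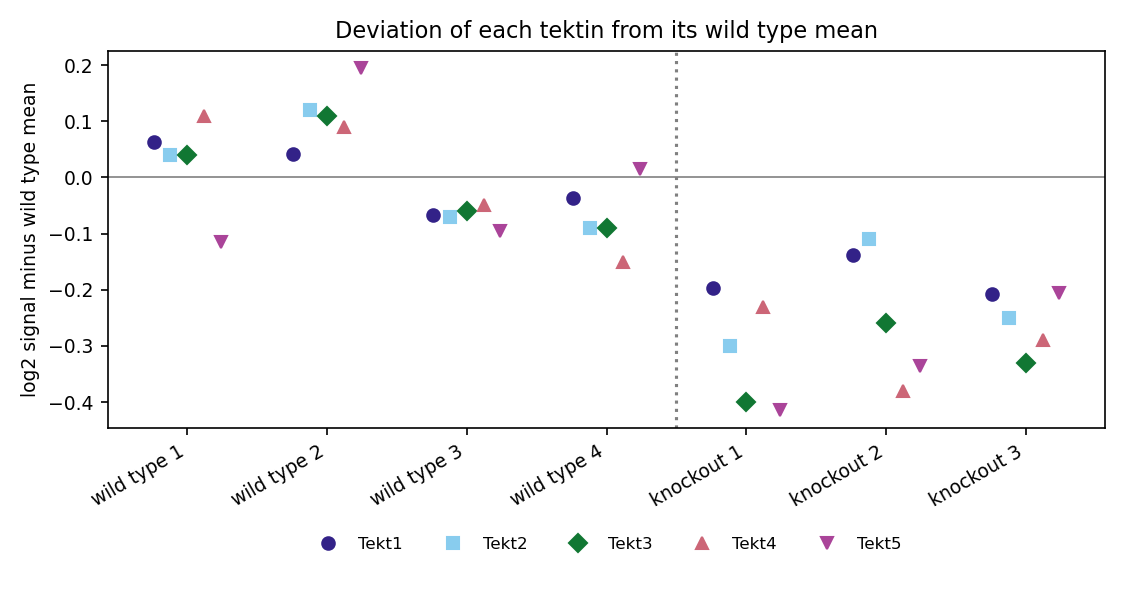
Log2 signal of each tektin minus its own wild type mean (y axis) in each of the 7 arrays (x axis), with 1 symbol per gene; the dotted line divides wild type from knockout arrays. Every knockout symbol lies below 0, from −0.11 for Tekt2 in knockout 2 to −0.42 for Tekt5 in knockout 1, while wild type symbols range from −0.15 to 0.20.

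The genes were then compared with each other, as the change in the difference between a pair of tektins on the same array. Over 10 pairs, the widest change was between Tekt1 and Tekt3, whose difference was 0.48 in knockout and 0.33 in wild type arrays, a change of 0.15 (SE 0.04, exact two-sided permutation p = 0.0286, 0.143 after Benjamini-Hochberg adjustment over the 10 pairs). Tekt2 against Tekt3 changed by 0.11 (SE 0.02) with the same p-values. The other 8 pairs had exact permutation p-values from 0.143 for Tekt1 against Tekt4 to 0.943 for Tekt3 against Tekt5. No pair passed after adjustment, but at least 6 of the 10 pairs would have had to reach the smallest exact p for any to pass, so the adjusted values decide little. The other 8 pairs were shown neither to differ nor to be equal.

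Genes with a pattern most like each tektin were ranked by the root mean square difference over the 7 arrays between log2 signals centred on each gene's own mean, among 8542 named genes brighter than the median. Tekt1 was closest to Entr1 (0.0207), Kif2c (0.0217), a mitotic kinesin gene, and Cox6b2 (0.0223), which encodes the testis form of a cytochrome oxidase subunit. Tekt2 was closest to Bpgm (0.0199), Spef2 (0.0203), a gene needed for the sperm flagellum, and Tsga10 (0.0231). Tekt3 was closest to Styxl1 (0.0160), Tsnaxip1 (0.0176) and Srprb (0.0184). Tekt4 was closest to Tbc1d14 (0.0140), Dgcr6 (0.0251) and Pmfbp1 (0.0369), which acts at the junction of sperm head and tail. Tekt5 had no neighbour as near, its closest being Ttc7 (0.0453), Lrriq3 (0.0548) and Pla2g2c (0.0584). None of these lists named another tektin. The nearest pair of tektins was Tekt1 and Tekt2 (0.0539), followed by Tekt2 and Tekt3 (0.0580), and the farthest was Tekt4 and Tekt5 (0.138). Of all tested genes, 2.37% were closer to Tekt1 than Tekt2 was, 1.32% were closer to Tekt2 than Tekt3 was, and 45.1% were closer to Tekt1 than Tekt5 was.

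Tektins share the inside of the doublet with other filament and bridging proteins. Of 31 genes listed for these doublet microtubule inner proteins, 19 were measured, of which 0 rose, 9 fell and 10 did not pass (limma). Among all tested genes 7.05% were called lower, and among the brighter genes 11.9%. At an unadjusted limma p under 0.05, 0 of the 19 were higher and 14 were lower, beside the 18.4% of all tested genes that were lower. This unadjusted share was not taken among the brighter genes alone. The 19 had a median log2 fold change of −0.23, against −0.30 for the 5 tektins and −0.05 for all tested genes. Cfap45 and Cfap52, which encode inner proteins found across cilia, fell by 0.42 (SE 0.09, limma adjusted p = 0.0222) and 0.26 (SE 0.06, 0.0255). Cfap53, known for its part in left-right patterning, fell by 0.36, Ribc2 by 0.33, Spag8 by 0.31 and Cfap161 by 0.31 (limma adjusted p from 0.0194 to 0.0256). Ccdc105, which encodes a tektin-like protein, had a log2 fold change of −0.35 (SE 0.11, limma adjusted p = 0.0565) and was named after its value was seen. Efhc2 (0.09) and Ribc1 (0.07) were the only measured members of this list with a higher mean in knockout; neither passed, and they too were named after their values were seen. No gene of this list passed without knockout 1, knockout 3 or wild type 1, and 1 passed without wild type 2, though 11, 12, 13 and 12 of them were lower at an unadjusted limma p under 0.05. The replicate block left 5 past the threshold.

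Of 36 genes for axonemal dyneins, radial spokes and the proteins that space them, 32 were measured. Of these, 0 rose, 14 fell and 18 did not pass (limma). Among all tested genes 7.05% were called lower, and among the brighter genes 11.9%. At an unadjusted limma p under 0.05, 1 of the 32 was higher and 21 were lower, beside the 18.4% of all tested genes that were lower. The 32 had a median log2 fold change of −0.29, and Ccdc40, Dnaic1 and Dnaic2 had the smallest p-values (limma adjusted p = 0.0133, 0.0134 and 0.0149). Of 13 genes for the outer dense fibres and the fibrous sheath, the sleeves that surround the axoneme, 12 were measured. None of the 12 passed in limma in either direction. At an unadjusted limma p under 0.05 there were 3 lower and 0 higher, beside the 18.4% of all tested genes that were lower. The 12 had a median of −0.11 and all were below 0, as 59.9% of all tested genes were. Odf3 had a log2 fold change of −0.26 (SE 0.08, limma adjusted p = 0.0627), Akap3, a fibrous sheath anchor of protein kinase A, of −0.17 (SE 0.06, 0.0822), and Ropn1 of −0.15 (SE 0.06, 0.132). A difference between these lists and the tektins was not tested.

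**Figure D3:**
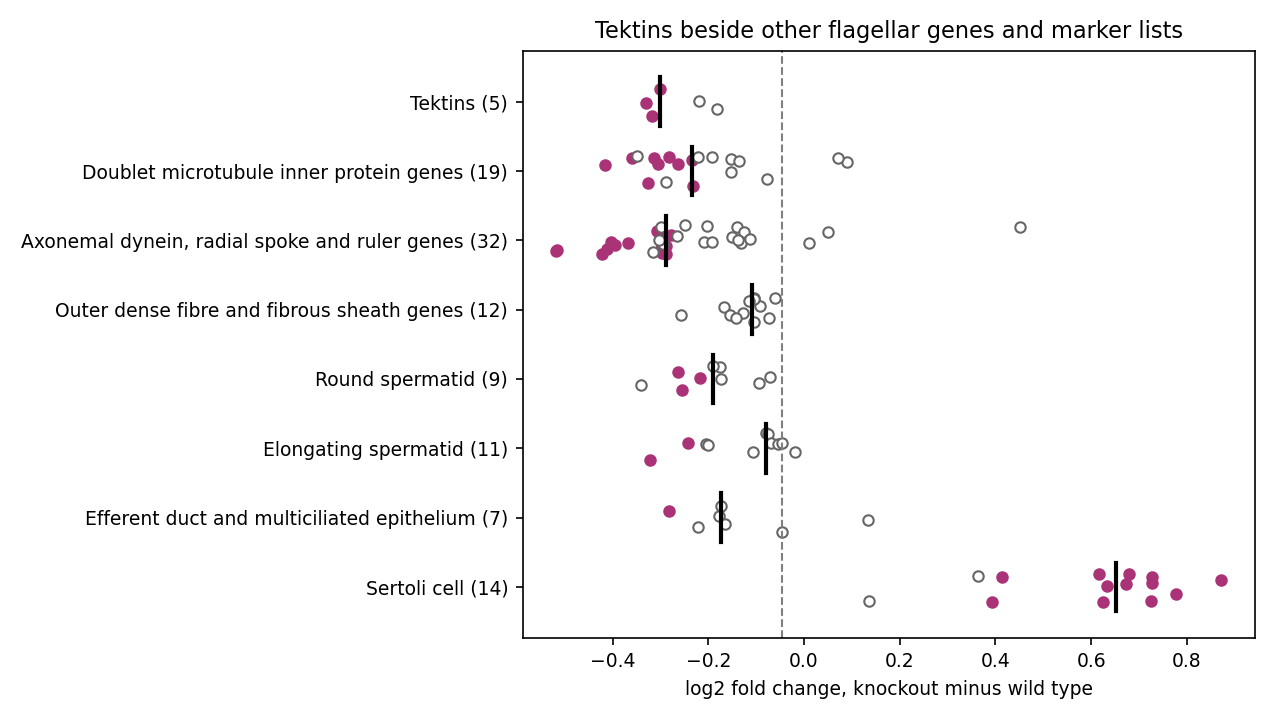
Log2 fold change, knockout minus wild type (x axis), of every measured gene in each list (y axis, number of genes in brackets); filled points passed limma's adjusted p of 0.05, the black bar is the list's median and the dashed line is the median of all tested genes (−0.05). The tektins lie between −0.33 and −0.18, within the range of the inner protein and axonemal lists, and the Sertoli cell markers lie to the right, between 0.14 and 0.87.

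Marker lists of testis cell types are given beside the tektins. Genes that fell are to be read against the 11.9% of brighter genes and the 7.05% of all tested genes called lower. Genes that rose are to be read against the 9.07% of all tested genes called higher. A share called higher was not taken among the brighter genes of that fit. With the dimmer genes left out of the limma fit, 1529 of 9095 genes were called higher. The median over all tested genes was −0.05. Of 9 measured round spermatid genes 3 fell and 6 did not pass, and all 9 were below 0, with a median of −0.19. Their summed linear signal ran from 15813 to 16011 in knockout and from 17511 to 19188 in wild type arrays. Of 11 elongating spermatid genes 2 fell and 9 did not pass, with a median of −0.08 and summed signals of 75429 to 76765 in knockout and 77489 to 82312 in wild type. The share called lower, 18.2%, rests on those 2 genes, and the median lies close to that of all genes. Yet all 11 were below 0, beside 59.9% of all tested genes. In 5 of the 11 all knockout arrays lay below all wild type arrays, beside 24.2% of brighter genes. Of 11 spermatocyte genes 2 fell and 9 did not pass (median −0.08, summed signal 20284 to 22442 in knockout against 21430 to 22192 in wild type). The meiotic kinase gene Aurkc, 1 of the 2 that fell, had the lowest log2 fold change of the list (−0.76) and was named after its value was seen. Of 10 spermatogonium genes 3 rose and 7 did not pass (median 0.21, 2369 to 2520 against 2061 to 2386). Sertoli cell markers were higher: 12 of 14 rose, 2 did not pass, and the summed signal was 15833 to 17436 in knockout against 9198 to 12128 in wild type. Leydig cell markers (3 of 5 rose, summed signal 7377 to 8760 against 3826 to 5334) and macrophage markers (5 of 9 rose, 1090 to 1831 against 747 to 984) were higher too. Of 7 genes of efferent duct and multiciliated epithelium, whose cilia also hold tektins, 1 fell, a share of 14.3%, and 6 did not pass (1666 to 1722 against 1836 to 2138). This sum rests mostly on Deup1 (mean log2 signal 10.24 in knockout and 10.46 in wild type) and Aqp9 (8.57 and 8.86), and 4 of the 7 lay below the array median in every array. The part of these shifts in the tektin signals was not tested.

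With each array shifted by its mean over the round and elongating spermatid lists, tektins left out, the log2 fold changes of the tektins were nearer to 0. They were −0.02 for Tekt1, −0.06 for Tekt2, −0.17 for Tekt3, −0.14 for Tekt4 and −0.16 for Tekt5, and none passed (limma adjusted p from 0.121 for Tekt3 to 0.851 for Tekt1). On this scale 0 of 5 tektins and 0 of 19 inner protein genes were called (limma), while 1 and 2 of them were lower at an unadjusted p under 0.05. This scale raised the log2 fold change of every gene by the same 0.16, so the order of genes stayed as it was. It moved the median of all tested genes from −0.05 to 0.12, and the calls over all genes from 1651 higher and 1283 lower to 3065 higher and 163 lower. The sign of each tektin was negative on the deposited scale, with quantile normalization, with median centring and with the spermatid scale.

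**Figure D4:**
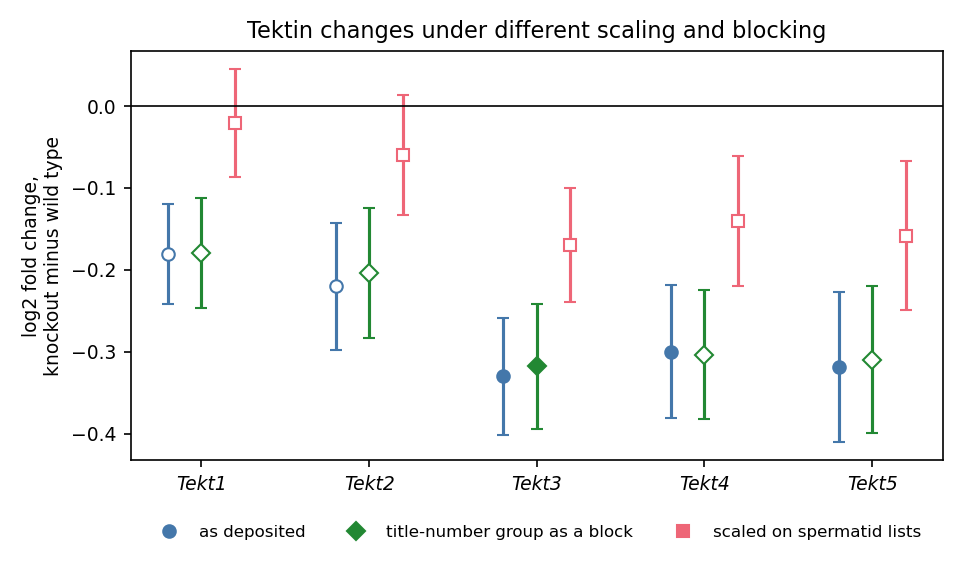
Log2 fold change of each tektin, knockout minus wild type (y axis), with its standard error as bars, from the values as deposited (blue circles), with title-number groups as a block (green diamonds) and with arrays scaled on spermatid genes (red squares). Filled symbols passed limma's adjusted p of 0.05: Tekt3, Tekt4 and Tekt5 as deposited, Tekt3 alone with the block, and none on the spermatid scale, where Tekt1 and Tekt2 lie near 0.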

How the data were processed

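Whole-testis RNA (2 ug per array) was measured on Affymetrix expression arrays. The authors deposited log2 signals, 1 column per array for 45101 probe sets. Per the submitters' processing notes the software was Affymetrix Expression Console 1.4.1. The methods of background correction, summarisation and normalization are not given in the sources used here. The log2 scale was read from the range of the values, 1.59 to 13.9. Normalization was added only as an alternative. Arrays have no read depth. Precision is limited by their number (median SE of a log2 fold change 0.0843).

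Probe sets were named from the platform's annotation table. Genes with a single-symbol probe set were represented by the one with the highest mean over all 7 arrays. Genotypes, taken from the titles and genotype labels, were compared in R 4.3.3 with lmFit and eBayes of limma 3.58.1 (two-sided, Benjamini-Hochberg adjustment over all genes, threshold 0.05), after a test on simulated data. Exact permutation tests ran over the arrays. The members and lists were chosen with earlier results of these data known. Named genes were the tektins, the 6 inner protein genes and 3 genes of each other flagellar list with the smallest p, and the 3 genes most like each tektin, without predicted names. Members not measured under a single symbol, 12 of the 31 inner protein genes among them, were not used here. Titles' first digits were tried as a block, since deviations from the genotype means correlated across genes at 0.103 to 0.319 between genotypes inside a group, against 0.0227 or less across groups.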

Additional observations from a re-analysis of the deposited data

How the results depend on the processing

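The log2 fold changes of all 5 tektins were negative in each of the 19 alternatives, from −0.37 to −0.17 for Tekt3, −0.36 to −0.14 for Tekt4, −0.38 to −0.16 for Tekt5, −0.28 to −0.06 for Tekt2 and −0.21 to −0.02 for Tekt1. Leaving out, weighting or blocking arrays could not turn these signs, since the genotypes do not overlap. Leaving out dim genes, the other uses of probe sets and limma's trend and robust settings did not change the log2 fold changes of the tektins at all. Only quantile normalization, median centring and the spermatid scale could have turned a sign. Tekt3 passed in 13 of the 19, Tekt4 in 9, Tekt5 in 5, Tekt1 in 2 and Tekt2 in 1. The count of tektins called lower, 3 as reported, was 1 with quantile normalization, 1 after blocking on title-number groups, 0 on the spermatid scale and 5 with limma's trend and robust settings. The inner protein count, 9 as reported, was 0 on the spermatid scale. With 1 array left out, the counts ran from 0 to 2 for tektins, 0 to 9 for inner protein genes and 175 to 2574 for all genes (2934 as reported). No tektin was called without knockout 1, knockout 3, wild type 1 or wild type 2, though 4, 4, 4 and 5 of them had an unadjusted limma p under 0.05. Without both knockout 3 and wild type 4, an alternative chosen after seeing the data, 0 tektins, 0 inner protein genes and 4 genes in all were called (limma), with 3 tektins and 11 inner protein genes at an unadjusted p under 0.05. Same-numbered arrays of the genotypes correlated at 0.182, 0.103 and −0.143 in their deviations, so the numbers were not taken as pairs. The replicate block gave 2 tektins, 5 inner protein genes and 2294 genes in all. The cause of these differences between settings was not tested. Signal over background is not known here, but every tektin signal lay above its array's median.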
